A study of Mus musculus with 18 samples.

Results

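The 9 genes described here are those of lipoprotein lipase (Lpl), of proteins that mature, anchor or inhibit it (Lmf1, Gpihbp1, Angptl4, Angptl2), of receptors that take up lipoproteins or fatty acids (Vldlr, Lrp1, Cd36) and of the related endothelial lipase (Lipg). They were chosen by name, and every probe set whose annotation names 1 of them alone was taken. This gave 21 of the 45037 probe sets on the array that are not controls, for 8 of the 9 genes, out of 18193 genes that have such a probe set. Angptl2, a secreted protein of the angiopoietin-like family, had no probe set under its name and was not analysed here.

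Total RNA came from adipose tissue of female Sv129 mice aged 10 wk that had been kept at 28 or 6°C for 10 days. The depots were interscapular brown adipose tissue (BAT), inguinal subcutaneous white adipose tissue (sWAT) and mesenteric white adipose tissue (mWAT), with 3 arrays for each depot and temperature and 18 in all. No mouse carried a genetic change or received a drug, and the methods count the 3 arrays of a group as biological replicates. The labels do not tell which arrays came from the same mouse, and the numbers 1 to 3 given to the arrays of a group are names only. Groups were taken from the titles, because the tissue and temperature listed among the other characteristics name a different group for all 18 arrays. Groups by title accounted for 98.9% of the variance of Ucp1, which uncouples respiration in brown adipocytes, and groups by the other characteristics for 48.3%.

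Lipoprotein lipase is made by adipocytes, muscle and other parenchymal cells. It acts on the luminal face of capillaries, where it hydrolyses the triglycerides of chylomicrons and very low density lipoproteins. The enzyme folds in the endoplasmic reticulum with the help of LMF1, is carried across the endothelium and held there by GPIHBP1, and is unfolded and inactivated by ANGPTL4. The fatty acids it frees enter cells through CD36 and other carriers, and remnant particles are bound by receptors of the low density lipoprotein receptor family such as VLDLR and LRP1. In cold-exposed rodents brown fat takes up much triglyceride-derived fatty acid by this route.

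Each gene is given by its brightest probe set, the one of highest mean log2 intensity over the 18 arrays. Levels are log2 intensities, and differences are log2 differences ± SE from 1 limma fit to all 18 arrays, with n = 3 arrays a group. Adjusted p-values are Benjamini-Hochberg values over all probe sets of a comparison, and a difference was called at an adjusted p under 0.01. The arrays' median log2 intensities ranged from 6.97 to 7.20, and no detection values came with them, so the exact size of a difference below that level is not measured. A level is not compared between genes, since probe sets differ in how they bind. RNA was measured in whole tissue, where fewer cells of a type and less RNA per cell cannot be told apart.

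The signal of genes typical of other tissues differed widely between arrays of the same depot, and its source was not tested. Arrays 3 of mWAT at 28 and 6°C correlated at r = 0.991 between themselves over all probe sets, and at 0.949 to 0.969 with the remaining 4 of that depot. Their mean over 8 lymphocyte genes was 7.82 and 7.67 against 11.56 to 11.80 in those 4. The mean over 11 genes of skeletal muscle ranged from 6.24 to 12.70 across BAT and sWAT arrays, and that over 6 genes of exocrine pancreas reached 14.09 in mWAT array 2 at 6°C. Over 9 brown adipocyte genes each BAT array had a list mean of 11.79 or more, and no mWAT array at 28°C had one over 7.91.

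Cold changed no member's brightest probe set past the threshold in any depot, whereas by the same measure 6 of the 8 genes were called between depots in at least 1 of 6 comparisons, Lpl and Lipg being the exceptions. In those comparisons 7.87% to 40.1% of all genes were called. For cold 5.33% of all genes were called in BAT, 0.742% in sWAT and 0.0055% in mWAT, so none of 8 is near those shares. Dimmer probe sets added Angptl4 and Vldlr for cold in sWAT, and Lpl between depots. Vldlr and Lmf1 were higher in BAT than in both white depots at both temperatures. Gpihbp1 and Cd36 were higher in BAT than in mWAT at both. Lrp1 was lower in BAT than in sWAT at both temperatures. Lpl itself was nearly level, with a span of 0.41 over all 18 arrays in its brightest probe set.

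**Figure D1:**
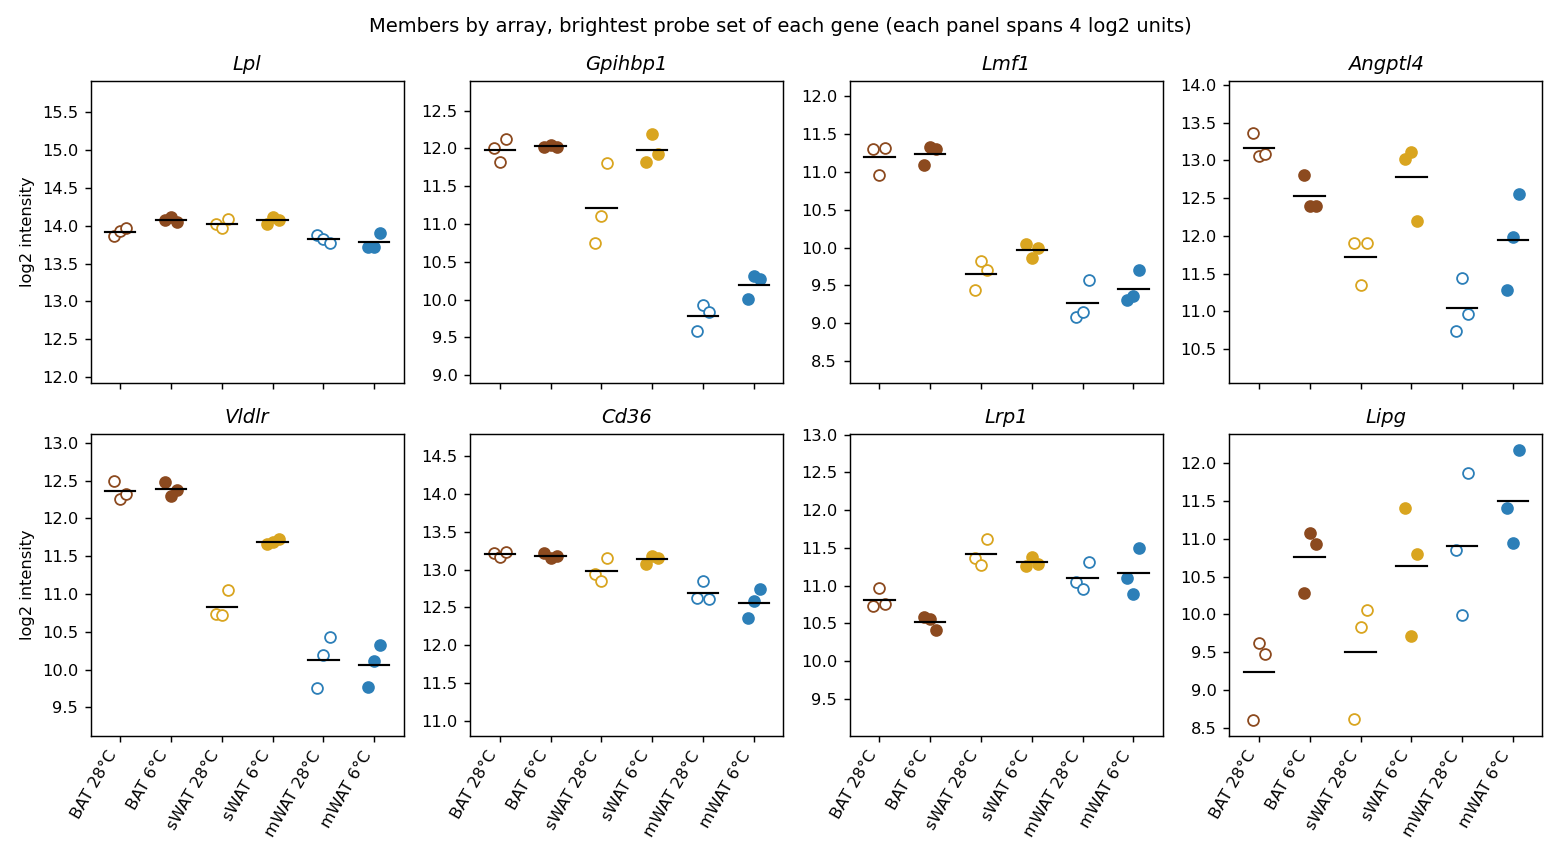
Log2 intensity (vertical axes, each spanning 4 log2 units) of the brightest probe set of 8 genes in each of 18 arrays, by depot and temperature (horizontal axis). Open circles are arrays at 28°C, filled circles arrays at 6°C and bars group means of 3 arrays. Lpl spans 0.41 log2 units over all arrays, while Gpihbp1, Angptl4 and Vldlr span 2.61 to 2.74.

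The promoters of 3 members are shown because these genes differed between BAT and sWAT at both temperatures, Lmf1 and Vldlr upward and Lrp1 downward. Each is the 250 bases before a RefSeq transcription start (GRCm38.p6), written 5′ to 3′ on the gene's strand. Lmf1 lies at chr17:25578924-25579173 (+), Lrp1 at chr10:127621149-127621398 (-) and Vldlr at chr19:27216234-27216483 (+). Capitals mark matches to a GC box (GGGCGG), the CCAAT box, the TATA box (TATAAA), a nuclear receptor half-site (AGGTCA) or a cAMP response half-site (TGACG), each searched on both strands.
Lmf1: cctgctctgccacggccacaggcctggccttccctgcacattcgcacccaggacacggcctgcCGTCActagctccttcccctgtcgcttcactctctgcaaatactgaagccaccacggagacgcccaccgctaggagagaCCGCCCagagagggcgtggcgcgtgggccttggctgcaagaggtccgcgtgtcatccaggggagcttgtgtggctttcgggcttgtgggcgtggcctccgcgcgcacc
Lrp1: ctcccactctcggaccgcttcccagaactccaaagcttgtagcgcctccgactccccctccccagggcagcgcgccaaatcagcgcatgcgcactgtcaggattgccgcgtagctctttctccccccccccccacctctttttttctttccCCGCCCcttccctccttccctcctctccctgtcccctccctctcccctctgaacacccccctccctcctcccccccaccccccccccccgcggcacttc
Vldlr: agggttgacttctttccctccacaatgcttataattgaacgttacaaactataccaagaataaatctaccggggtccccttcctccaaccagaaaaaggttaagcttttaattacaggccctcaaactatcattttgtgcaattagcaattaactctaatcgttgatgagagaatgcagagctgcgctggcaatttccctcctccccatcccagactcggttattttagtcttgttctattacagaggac

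The Lmf1 window held 1 GC box and 1 cAMP response half-site, the Lrp1 window held 1 GC box, and the window at the first start of Vldlr held no match. The window at its second start, at chr19:27216770-27217019 and not printed, held 1 GC box and 1 CCAAT box. The GC box is in 32.7% of 32851 RefSeq promoter windows of this length and the cAMP response half-site in 17.8%. The Lmf1 and Lrp1 windows had a GC content of 66.8% and 67.2%, and those of Vldlr 41.6% at the first start and 66.4% at the second, against a median of 52.4% over all windows. A match is a string of letters, and no binding was measured here. Windows of Angptl2 and Cd36 were listed too and are not printed, and none was matched for Lpl, Gpihbp1 and Angptl4. Lipg was left out of the promoter listing.

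Lpl, the lipase itself (probe set 1415904_at; chr8:68880555-68906932), was among the brightest signals of the array, with 51 of 45037 probe sets above it. In BAT its log2 intensities were 13.87, 13.93 and 13.97 at 28°C and 14.08, 14.12 and 14.05 at 6°C. In sWAT it read 14.02, 13.97 and 14.08 at 28°C and 14.03, 14.12 and 14.08 at 6°C. In mWAT it read 13.88, 13.82 and 13.78 at 28°C and 13.71, 13.72 and 13.91 at 6°C. The BAT arrays at 6°C all lay above those at 28°C, while the temperatures overlapped in sWAT and mWAT. The cold difference was 0.16 ± 0.09 in BAT (adjusted p = 0.30), with a 95% interval of -0.04 to 0.36. It was 0.05 ± 0.09 in sWAT (interval -0.15 to 0.24) and -0.05 ± 0.09 in mWAT (interval -0.24 to 0.15), so a 1.5-fold change of this probe set's signal lies outside all 3 intervals, which does not hold for the other probe set in BAT. Whether the signal was compressed near the top of the intensity scale was not tested.

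A dimmer probe set of Lpl (1431056_a_at) varied more. In BAT it read 13.33, 13.38 and 13.37 at 28°C and 13.68, 13.74 and 13.75 at 6°C, without overlap. That cold difference was 0.36 ± 0.13 (adjusted p = 0.083, not called), with a 95% interval of 0.09 to 0.64. In sWAT and mWAT it gave 0.16 ± 0.13 and -0.06 ± 0.13. At 6°C it read 13.53, 13.76 and 13.69 in sWAT, and 12.69, 12.94 and 13.03 in mWAT. Every mWAT array at 6°C lay below every BAT and sWAT array at 6°C. The difference from mWAT was 0.84 ± 0.13 in BAT, 1.79-fold (adjusted p = 9.6e-05), and 0.77 ± 0.13 in sWAT, 1.71-fold (adjusted p = 0.00095). The brightest probe set moved the same way by 0.30 ± 0.09 in each (adjusted p = 0.013 and 0.045), and was not called. For BAT against mWAT it was called under 6 alternatives at the same threshold (adjusted p = 0.00026 to 0.00995) and without mWAT array 3 at 6°C (adjusted p = 0.0062). Both probe sets correlated at r = 0.945 over the 18 arrays.

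Lmf1, the endoplasmic reticulum protein that lipases need to reach an active fold (1424259_at; chr17:25579174-25662831), separated BAT from both white depots. It read 11.30, 10.96 and 11.32 in BAT at 28°C and 11.09, 11.33 and 11.30 at 6°C. In sWAT it read 9.44, 9.82 and 9.71 at 28°C and 10.05, 9.86 and 9.99 at 6°C. In mWAT it read 9.08, 9.15 and 9.57 at 28°C and 9.30, 9.36 and 9.70 at 6°C. All 6 BAT arrays lay above all 12 white fat arrays. Against sWAT, BAT was higher by 1.54 ± 0.16 at 28°C, 2.91-fold (adjusted p = 6.0e-06), and by 1.27 ± 0.16 at 6°C, 2.41-fold (adjusted p = 4.1e-05). Against mWAT it was higher by 1.93 ± 0.16 at 28°C (adjusted p = 5.2e-07) and by 1.79 ± 0.16 at 6°C (adjusted p = 7.8e-07). The sWAT arrays at 6°C all lay above those at 28°C, by a mean of 0.31 ± 0.16 that was not called (adjusted p = 0.47). A dim Lmf1 probe set (1445833_at) stayed between 3.43 and 5.24, under the array medians, and was called in no comparison.

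Gpihbp1, the capillary anchor of the lipase (1453022_at; chr15:75596630-75598213), is known to be confined to endothelial cells. In BAT it read 12.004, 11.82 and 12.12 at 28°C and 12.02, 12.05 and 12.02 at 6°C. In sWAT it read 10.75, 11.10 and 11.80 at 28°C and 11.82, 12.20 and 11.93 at 6°C. In mWAT it read 9.59, 9.93 and 9.84 at 28°C and 10.01, 10.32 and 10.27 at 6°C. The mWAT arrays lay below all others at both temperatures, the sWAT arrays at 28°C lay between, and sWAT at 6°C overlapped BAT. BAT exceeded mWAT by 2.20 ± 0.21 at 28°C, 4.59-fold (adjusted p = 1.4e-06), and by 1.83 ± 0.21 at 6°C, 3.56-fold. sWAT exceeded mWAT by 1.43 ± 0.21 at 28°C, 2.70-fold (adjusted p = 0.00029, and 0.036 with only the groups compared in the fit), and by 1.79 ± 0.21 at 6°C, 3.45-fold.

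Between BAT and sWAT the Gpihbp1 difference was 0.76 ± 0.21 at 28°C (adjusted p = 0.010, not called) and 0.05 ± 0.21 at 6°C (95% interval -0.40 to 0.49). In the cold its sWAT arrays all lay above those at 28°C, by 0.77 ± 0.21, 1.70-fold (adjusted p = 0.093). The mWAT arrays were also higher without overlap, by 0.41 ± 0.21 (adjusted p above 0.99), and in BAT the difference was 0.05 ± 0.21. The result in sWAT turned on array 3 at 28°C, which read 11.80. Without it the cold difference in sWAT was 1.06 (adjusted p = 0.0049) and the difference between BAT and sWAT at 28°C was called too (adjusted p = 0.00028). The latter was also called with median centring, with dim probe sets left out, and with a variance trend and robust estimates (adjusted p = 0.0032 to 0.0057).

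The mean over 14 other endothelial genes was likewise lower in mWAT than in BAT. At 28°C it ranged from 10.52 to 10.72 over the BAT arrays and from 9.59 to 9.83 over the mWAT arrays. At 6°C these ranges were 10.75 to 10.81 and 9.80 to 9.91. The sWAT arrays at 6°C lay from 10.45 to 10.58, below BAT, whereas Gpihbp1 in sWAT overlapped BAT there. In sWAT at 28°C the 3 arrays had list means of 9.89, 10.06 and 10.65, in the same order as Gpihbp1. The order was also the same in BAT at 28°C, but not in the remaining groups. In sWAT at 6°C the list means were 10.58, 10.47 and 10.45, while Gpihbp1 was highest in array 2. Of the 14 genes, 8 were called higher in BAT than in mWAT at 28°C and 11 at 6°C, against 17.7% and 21.3% of all genes. None was called for cold in sWAT (median difference 0.30), where 0.742% of all genes were called. Pecam1, Cdh5 and Kdr, which define endothelium, read 7.81 or more in every array, above the array medians. The part of endothelial content in the Gpihbp1 result was not tested.

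**Figure D2:**
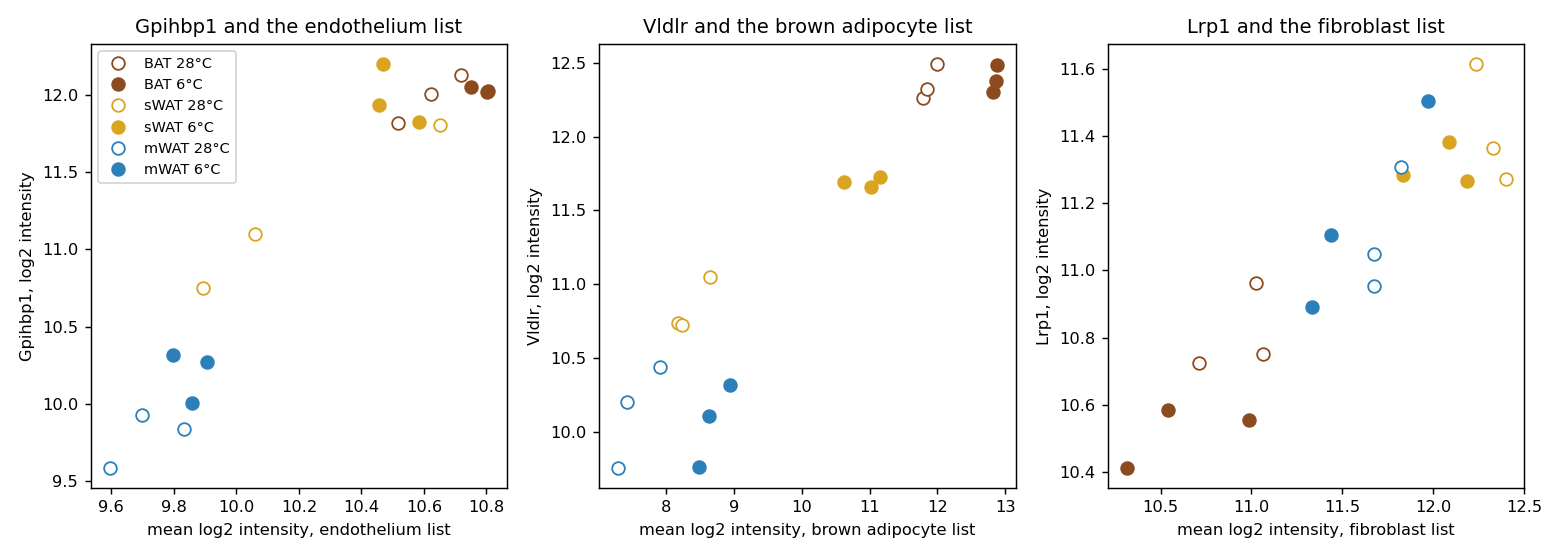
Log2 intensity of 3 members (vertical axes) against the mean log2 intensity of a marker gene list (horizontal axes) in each of 18 arrays: Gpihbp1 with 14 endothelial genes, Vldlr with 9 brown adipocyte genes and Lrp1 with 9 fibroblast genes. Colours are depots, open circles 28°C and filled circles 6°C. The 3 sWAT arrays at 28°C lie apart in Gpihbp1, at 10.75, 11.10 and 11.80, with list means of 9.89, 10.06 and 10.65.

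Angptl4, a secreted inhibitor of the lipase that fasting and fatty acids are known to induce (1417130_s_at; chr17:33774900-33781575), had its highest group mean in BAT at 28°C. In BAT it read 13.36, 13.06 and 13.09 at 28°C and 12.80, 12.40 and 12.39 at 6°C. In sWAT it read 11.91, 11.35 and 11.90 at 28°C and 13.01, 13.12 and 12.20 at 6°C. In mWAT it read 10.74, 11.44 and 10.97 at 28°C and 11.28, 11.99 and 12.56 at 6°C. The BAT arrays at 6°C all lay below those at 28°C, the sWAT arrays at 6°C all lay above, and the mWAT temperatures overlapped. At 28°C BAT was higher than sWAT by 1.45 ± 0.31, 2.73-fold (adjusted p = 0.0021), and higher than mWAT by 2.12 ± 0.31, 4.35-fold (adjusted p = 7.1e-05). At 6°C no depot difference was called, and that between BAT and sWAT was -0.24 ± 0.31 (95% interval -0.90 to 0.42). Leaving out BAT array 1 or sWAT array 2 at 28°C ended the call between BAT and sWAT (adjusted p = 0.011 to 0.013).

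For cold alone this Angptl4 probe set gave -0.64 ± 0.31 in BAT (adjusted p = 0.21), 1.06 ± 0.31 in sWAT (adjusted p = 0.12) and 0.89 ± 0.31 in mWAT (adjusted p above 0.99), none called. The cold response of BAT minus that of sWAT was -1.69 ± 0.44 (adjusted p = 0.066), and minus that of mWAT -1.53 ± 0.44 (adjusted p = 0.085), not called either. Both of these contrasts share the BAT arrays with each other and with the cold comparison in BAT. The second probe set (1453410_at) read 5.77, 6.04 and 5.32 in BAT at 28°C and 6.67, 6.64 and 5.75 at 6°C, a difference of 0.64 ± 0.45 in the other direction. In sWAT it read 3.87, 3.79 and 4.27 at 28°C and 7.15, 7.45 and 5.81 at 6°C. It was called higher there by 2.83 ± 0.45 (adjusted p = 0.0054). The 28°C readings lay under the array medians, and so did those of arrays 1 and 3 at 6°C (medians 7.18 and 7.14). In mWAT this second probe set was also higher at 6°C without overlap, by 1.99 ± 0.45 (adjusted p = 0.43, not called). Its cold response in sWAT minus that in mWAT was 0.84 ± 0.64 (adjusted p above 0.99). Its mean over the 18 arrays was 5.18, under the array medians. A name ending in _s_at marks a probe set that may match more than 1 transcript.

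Vldlr, the receptor that binds triglyceride-rich particles beside the lipase (chr19:27216480-27254231), was measured by 6 probe sets. The brightest (1434465_x_at) read 12.49, 12.26 and 12.32 in BAT at 28°C and 12.48, 12.30 and 12.38 at 6°C. In sWAT it read 10.74, 10.72 and 11.05 at 28°C and 11.66, 11.69 and 11.73 at 6°C. In mWAT it read 9.76, 10.20 and 10.44 at 28°C and 9.76, 10.11 and 10.32 at 6°C. The depots did not overlap at either temperature, and BAT was highest and mWAT lowest. BAT exceeded sWAT by 1.52 ± 0.17 at 28°C, 2.88-fold (adjusted p = 1.1e-05), and by 0.69 ± 0.17 at 6°C, 1.62-fold (adjusted p = 0.0057). The call of this probe set at 6°C ended without any 1 of its 6 arrays (adjusted p = 0.012 to 0.024). The 5 other probe sets were also called higher there, by 1.12 to 1.57 (adjusted p = 3.6e-05 to 0.00093). BAT exceeded mWAT by 2.23 ± 0.17 at 28°C, 4.69-fold, and by 2.32 ± 0.17 at 6°C, 5.01-fold. sWAT exceeded mWAT by 1.63 ± 0.17 at 6°C, 3.09-fold (adjusted p = 1.8e-05), and by 0.70 ± 0.17 at 28°C, which was not called (adjusted p = 0.015).

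The sWAT arrays at 6°C all lay above those at 28°C in Vldlr, by 0.86 ± 0.17, 1.81-fold. This missed the threshold (adjusted p = 0.022), as the p from limma before adjustment of 0.00018 stood among 45037. All 6 probe sets differed in that direction, by 0.82 to 1.11, and 1 of them (1417900_a_at, 1.06 ± 0.18) was called (adjusted p = 0.0092). Over the 18 arrays the 5 others correlated with the brightest at r = 0.972 to 0.990, so they are not independent measurements. In BAT and mWAT the brightest gave 0.03 ± 0.17 and -0.07 ± 0.17. The cold response of sWAT exceeded that of mWAT by 0.92 ± 0.24 (adjusted p = 0.59) and that of BAT by 0.83 ± 0.24 (adjusted p = 0.11), and neither difference was called.

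The Vldlr result in sWAT was called at an adjusted p of 0.0075 with dim probe sets left out, 0.0055 with a variance trend and robust estimates, and 0.0067 without both mWAT arrays 3. The adjusted p was 0.11 with only the groups compared in the fit, 0.067 with the skeletal muscle list as a covariate, and 0.018 to 0.022 under the remaining scalings and the mean over probe sets. Over the 18 fits that left out 1 array its value was 0.80 to 0.96 and its adjusted p 0.011 to 0.11. The mean over 9 brown adipocyte genes rose in sWAT from 8.18 to 8.64 at 28°C to 10.62 to 11.16 at 6°C. There 7 of the 9 were called higher, against 0.72% of all genes, with a median difference of 2.93. The list's group mean also rose without overlap in BAT, from 11.88 to 12.851, and in mWAT, from 7.545 to 8.689. In each of these 1 of the 9 genes was called higher, against 2.8% and 0.0055% of all genes. The median difference of the 9 genes was 0.19 in BAT, where the largest was 6.08, and 0.86 in mWAT. In those depots the cold difference of the brightest Vldlr probe set was smaller than its SE. Over the 6 Vldlr probe sets it was 0.03 to 0.33 in BAT and -0.16 to 0.34 in mWAT, none called. The list's part in the Vldlr difference was not tested.

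Cd36, the fatty acid translocase of the plasma membrane (1450883_a_at; chr5:17781690-17888959), spanned 0.87 over the 18 arrays, with 610 probe sets brighter. In BAT it read 13.22, 13.17 and 13.24 at 28°C and 13.22, 13.15 and 13.17 at 6°C. In sWAT it read 12.94, 12.85 and 13.15 at 28°C and 13.08, 13.19 and 13.15 at 6°C. In mWAT it read 12.62, 12.85 and 12.62 at 28°C and 12.36, 12.59 and 12.74 at 6°C. Every mWAT array lay below every BAT and sWAT array, though the highest of mWAT and the lowest of sWAT both read 12.85. BAT exceeded mWAT by 0.51 ± 0.12 at 28°C, 1.43-fold (adjusted p = 0.0028), and by 0.62 ± 0.12 at 6°C, 1.54-fold (adjusted p = 0.00053). sWAT exceeded mWAT by 0.57 ± 0.12 at 6°C, 1.49-fold (adjusted p = 0.0040).

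Of the 3 probe sets of Cd36, 2 were called for BAT against mWAT at 28°C, 3 at 6°C and 2 for sWAT against mWAT at 6°C, where 27.2%, 35.2% and 7.45% of all probe sets were called. Cold differences of the brightest were -0.02 ± 0.12 in BAT, 0.16 ± 0.12 in sWAT and -0.13 ± 0.12 in mWAT, none called. Leaving out BAT array 1 or 3 or mWAT array 1 or 3 at 28°C ended the call of BAT against mWAT at 28°C (adjusted p = 0.011 to 0.015), as did the skeletal muscle list as a covariate (adjusted p = 0.014). With only the groups compared in the fit all 3 calls were lost (adjusted p = 0.018 to 0.083). That of sWAT against mWAT ended without any sWAT array at 6°C or without mWAT array 1 or 2 (adjusted p = 0.010 to 0.024).

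Lrp1, the large endocytic receptor of chylomicron remnants (1448655_at; chr10:127538157-127621148), ran the other way and was lowest in BAT. In BAT it read 10.72, 10.96 and 10.75 at 28°C and 10.59, 10.56 and 10.41 at 6°C. In sWAT it read 11.36, 11.27 and 11.61 at 28°C and 11.27, 11.38 and 11.28 at 6°C. In mWAT it read 11.05, 10.95 and 11.31 at 28°C and 11.10, 10.89 and 11.50 at 6°C. All BAT arrays lay below all sWAT arrays, and BAT overlapped mWAT at 28°C only. BAT was lower than sWAT by 1.52-fold at 28°C (-0.60 ± 0.15, adjusted p = 0.0070) and by 1.73-fold at 6°C (-0.79 ± 0.15, adjusted p = 0.0011). It was lower than mWAT by 1.57-fold at 6°C (-0.65 ± 0.15, adjusted p = 0.0029), and the difference at 28°C of -0.29 ± 0.15 was not called.

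The BAT arrays at 6°C all lay below those at 28°C in Lrp1, by -0.30 ± 0.15 (adjusted p = 0.24). The second Lrp1 probe set (1442849_at) was called in no comparison. The call against sWAT at 28°C ended without BAT array 1 or 3 or sWAT array 1 or 3 (adjusted p = 0.018 to 0.033), and that against mWAT at 6°C without array 3 of either (adjusted p = 0.013 to 0.015). Median centring, the mean over both probe sets and a fit of only the groups compared each ended both of these calls (adjusted p = 0.019 to 0.060), and the skeletal muscle covariate ended the one against sWAT at 28°C (adjusted p = 0.012). The call against sWAT at 6°C passed under all of these. The mean over 9 fibroblast genes was 10.71 to 11.06 in BAT at 28°C and 12.24 to 12.40 in sWAT, and 9 of the 9 genes were called lower in BAT. The mean over 11 macrophage genes was 9.23 to 9.59 in BAT and 10.54 to 10.59 in sWAT, with 10 called lower in BAT. Of all genes 13% were called lower in that comparison. Against mWAT at 28°C, 7 of 9 fibroblast and 9 of 11 macrophage genes were called lower in BAT, and Lrp1 was not. The share of all genes called lower there was 14.8%. Both cell types are known to express Lrp1, and their part in its difference was not tested.

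Lipg, an endothelial lipase that prefers phospholipids of high density lipoproteins (1421262_at), was the most variable member within groups and was called in no comparison. In BAT it read 8.61, 9.62 and 9.47 at 28°C and 10.28, 11.08 and 10.93 at 6°C. In sWAT it read 8.61, 9.83 and 10.06 at 28°C and 11.40, 9.72 and 10.80 at 6°C. In mWAT it read 10.85, 9.99 and 11.87 at 28°C and 11.40, 10.94 and 12.18 at 6°C. Only in BAT did the temperatures not overlap in this probe set, as in 1450188_s_at (1.27 ± 0.45 in BAT, adjusted p = 0.084). In 1421261_at they overlapped neither in BAT (0.84 ± 0.25, adjusted p = 0.042) nor in sWAT (0.71 ± 0.25, adjusted p = 0.22). That probe set had a mean of 5.17 over the 18 arrays, under the array medians, and neither of these 2 was called. The cold difference of the brightest was 1.53 ± 0.54 in BAT (adjusted p = 0.080), 1.14 ± 0.54 in sWAT (adjusted p = 0.41) and 0.60 ± 0.54 in mWAT. At 28°C BAT differed from mWAT by -1.67 ± 0.54 (adjusted p = 0.022), which was called without mWAT array 2 (adjusted p = 0.0090).

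Read as a set, none of the 8 members was called for cold in BAT, none in sWAT and none in mWAT. Over all 18193 genes by the same rule, 5.33% were called in BAT, 0.742% in sWAT and 0.0055% in mWAT, so none of 8 is near the background in each depot. At an unadjusted p under 0.05 from limma there was 1 member in BAT (Lipg), 3 in sWAT (Vldlr, Gpihbp1 and Angptl4) and 1 in mWAT (Angptl4). The arrays of both temperatures did not overlap for 4 members in BAT (Lpl and Lipg higher, Angptl4 and Lrp1 lower), against 39.9% of all genes. In sWAT they did not overlap for 4 members, all higher in the cold (Gpihbp1, Lmf1, Angptl4 and Vldlr). Of all genes 21.8% did not overlap there in either direction, and 13.1% were higher in that way. In mWAT this held for Gpihbp1, against 7.52% of all genes. The members' median cold difference was 0.04 in BAT, 0.54 in sWAT and 0.12 in mWAT, and that of all genes was within 0.01 of 0 in each. Over all 21 probe sets 2 were called for cold, both in sWAT (1417900_a_at of Vldlr and 1453410_at of Angptl4), where 0.48% of all probe sets were called.

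**Figure D3:**
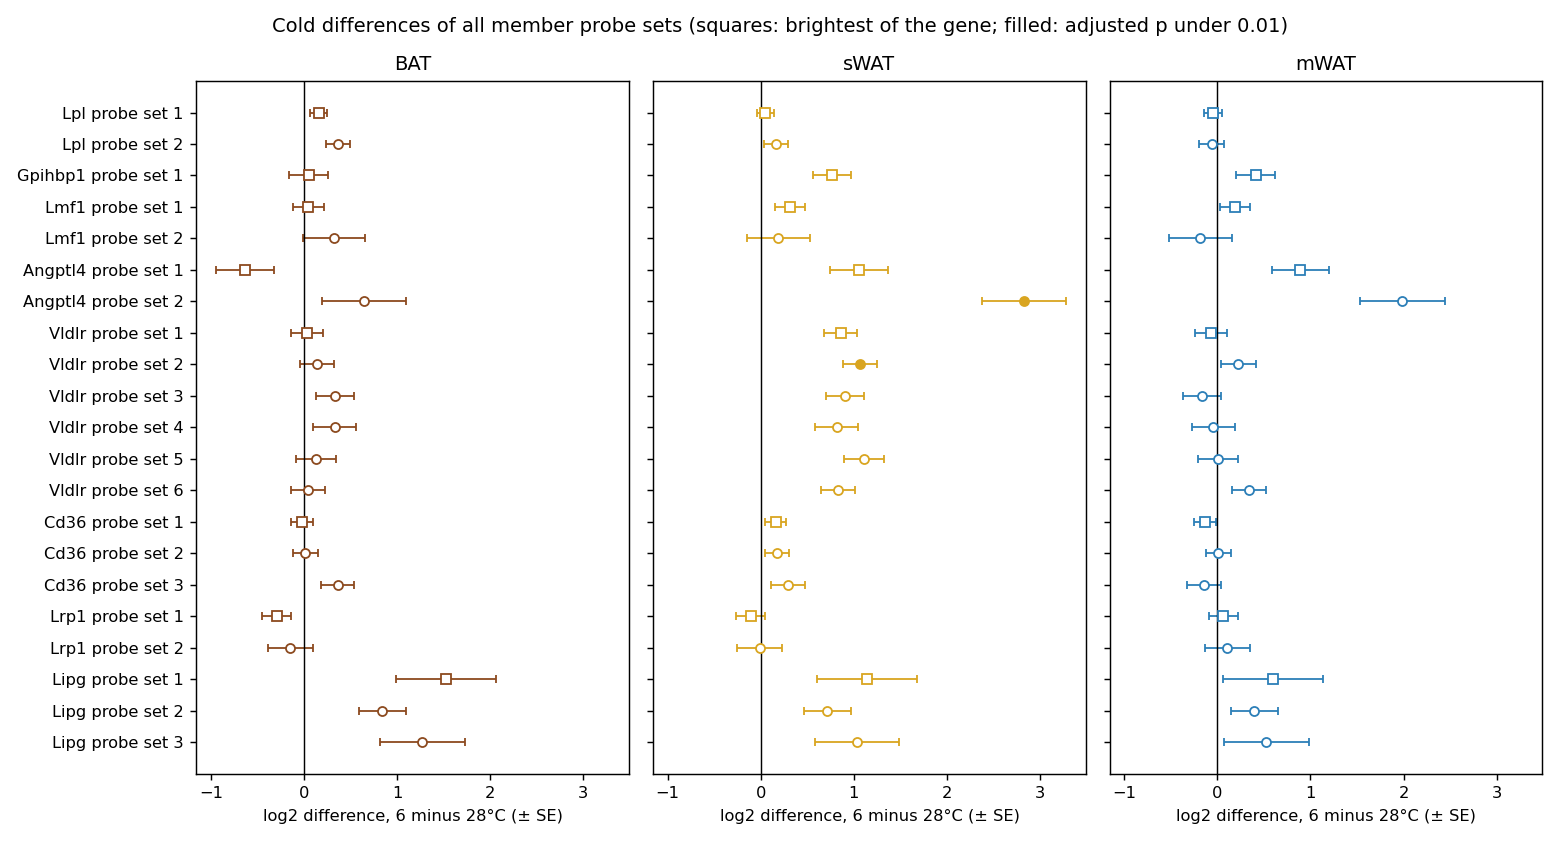
Log2 difference of 6 minus 28°C with its SE (horizontal axes) for each of 21 probe sets of the 8 genes (vertical axis) in BAT, sWAT and mWAT. Squares are the brightest probe set of a gene and circles the others, and filled symbols passed an adjusted p of 0.01. The 2 filled symbols are dimmer probe sets of Angptl4 and Vldlr in sWAT, at 2.83 and 1.06.

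At 28°C, 3 members were called higher in BAT than in sWAT (Lmf1, Angptl4 and Vldlr) and 1 lower (Lrp1), against 27.5% of all genes called, 14.5% higher and 13% lower. Against mWAT 5 were called higher (Gpihbp1, Lmf1, Angptl4, Vldlr and Cd36) and none lower, where 32.5% of all genes were called and 17.7% called higher. Between sWAT and mWAT only Gpihbp1 was called, higher in sWAT, against 7.87% of all genes and 3.05% higher. At 6°C, 2 members were higher in BAT than in sWAT (Lmf1 and Vldlr) and 1 lower (Lrp1), against 26.8% of all genes, 13.4% each way. Against mWAT 4 were higher (Gpihbp1, Lmf1, Vldlr and Cd36) and 1 lower (Lrp1), against 40.1%, 21.3% higher and 18.9% lower. Between sWAT and mWAT 3 were higher in sWAT (Gpihbp1, Vldlr and Cd36), against 10.2% called either way and 5.17% called higher. The members' median difference between BAT and mWAT was 1.22 at 28°C and 0.61 at 6°C, where all genes had medians of 0.08 and 0.10.

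Centring each array on its median would move differences between BAT and white fat upward by 0.13 to 0.19, and cold differences by at most 0.04. Under that centring Lrp1 lost its calls against sWAT at 28°C (-0.46, adjusted p = 0.030) and against mWAT at 6°C (-0.46, adjusted p = 0.023). Gpihbp1 between BAT and sWAT at 28°C (0.91) and Lpl between BAT and mWAT at 6°C (0.50) gained one, and the other calls stood. Of the 8 members, none was called for a difference between cold responses. Of all genes 0.467% were called for BAT against sWAT, 0.566% for BAT against mWAT and 0% for sWAT against mWAT. Before adjustment 3, 1 and 1 of the 8 had p under 0.05 from limma in these comparisons.

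**Figure D4:**
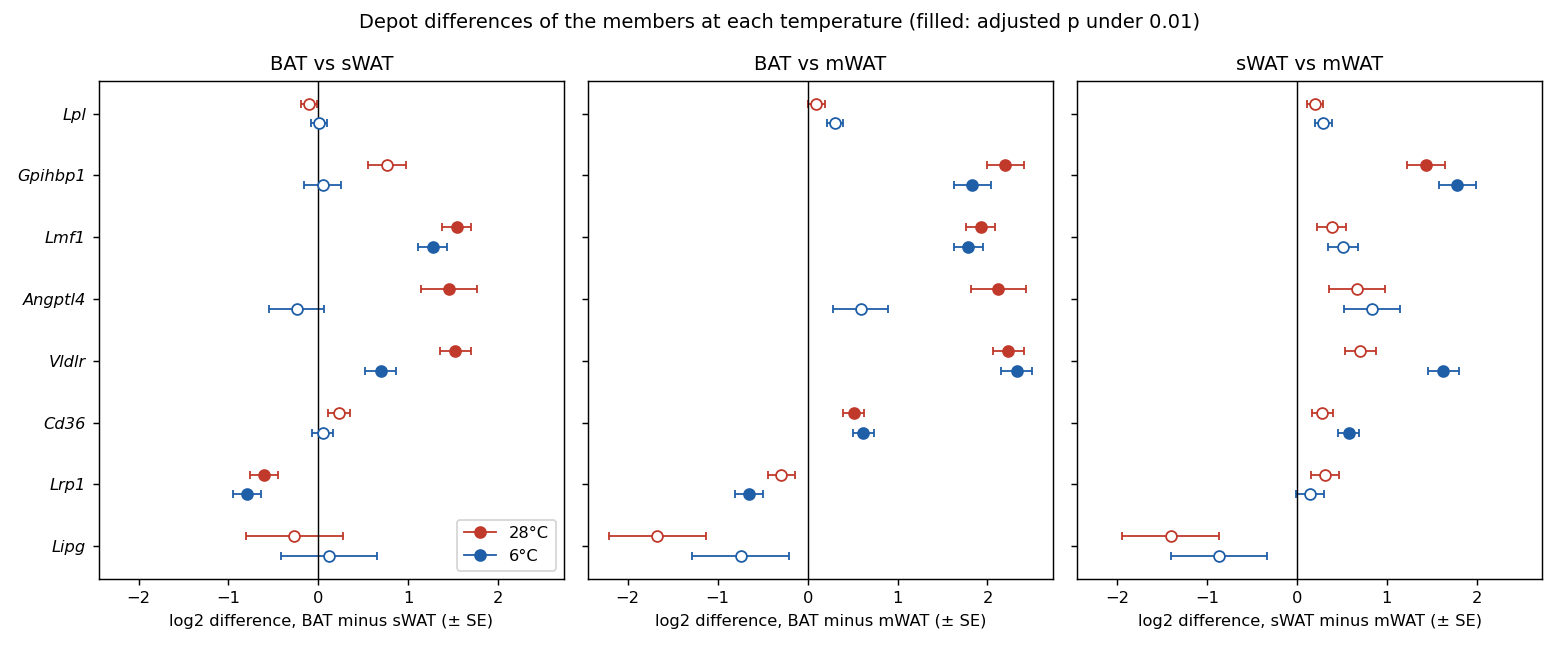
Log2 difference between depots with its SE (horizontal axes) for the brightest probe set of 8 genes (vertical axis), for BAT minus sWAT, BAT minus mWAT and sWAT minus mWAT. Red is 28°C and blue 6°C, and filled circles passed an adjusted p of 0.01. Vldlr differs between BAT and sWAT by 1.52 at 28°C and 0.69 at 6°C, and Angptl4 by 1.45 and -0.24.

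The order of the 6 group means differed between members. In Vldlr 3 of the 5 steps between neighbours in that order showed no overlap of arrays, from BAT to sWAT at 6°C, on to sWAT at 28°C and on to mWAT. In Gpihbp1 3 of 5 steps showed none, in Lmf1 2, and in Lpl, Cd36 and Lrp1 1 each. In Angptl4 and Lipg every neighbour overlapped the next.

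Other genes of the pathway, 52 in 5 lists of which 45 had a probe set, held 5 calls for cold in BAT, 3 in sWAT and none in mWAT, against 5.33%, 0.742% and 0.0055% of all genes. In BAT 1 of 9 genes of lipase cofactors and apolipoproteins was called, Apoe, a ligand of lipoprotein receptors. It read 12.80, 12.93 and 13.11 at 28°C and 11.09, 11.78 and 11.20 at 6°C, a fall by 1.59 ± 0.17 (adjusted p = 6.0e-05). Of 9 genes of lipase folding, traffic and cleavage 2 rose in BAT. Sorl1, a sorting receptor known to bind lipoprotein lipase and APOA5, rose from 8.81, 9.26 and 8.66 to 10.72, 10.51 and 10.98, by 1.82 ± 0.19 (adjusted p = 6.0e-05). Furin, a proprotein convertase that cleaves lipases, rose by 0.62 ± 0.12 (adjusted p = 0.0044).

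Of 12 genes of fatty acid uptake and trapping, Acsl5, an acyl-CoA synthetase, rose in BAT by 1.38 ± 0.15 (adjusted p = 6.0e-05). Of 10 transcriptional regulators, Ppard, a nuclear receptor for fatty acids, rose there by 0.75 ± 0.13 (adjusted p = 0.0020). In sWAT the called genes were Slc27a2, a fatty acid transporter with acyl-CoA synthetase activity, and Fabp3, a fatty acid-binding protein, of the uptake list, and Ppara, a nuclear receptor that drives fatty acid oxidation. Slc27a2 rose by 3.92 ± 0.34, from values of 4.62 to 5.54 that lie under the array medians, Fabp3 by 3.30 ± 0.30 and Ppara by 3.01 ± 0.27. Ppara is also 1 of the brown adipocyte genes. Of 5 genes of lipoprotein receptors and related lipases none was called for cold in any depot (2 in BAT and none in sWAT or mWAT at an unadjusted p under 0.05 from limma). Apoc2, the activator of the lipase, differed in the cold by 1.45 ± 0.33 in BAT (adjusted p = 0.010) and 1.59 ± 0.33 in sWAT (adjusted p = 0.026), not called, with most arrays near or under the array medians.

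Angptl8, a secreted protein of the angiopoietin-like family, did not overlap between temperatures in any depot but was not called, at -0.60 ± 0.27 in BAT, -0.74 ± 0.27 in sWAT and -1.49 ± 0.27 in mWAT (adjusted p = 0.16, 0.23 and 0.16). In mWAT it read 11.42, 10.99 and 11.52 at 28°C and 9.71, 9.67 and 10.06 at 6°C. At 6°C it was called higher in BAT than in mWAT (1.27 ± 0.27, adjusted p = 0.0012) and higher in sWAT than in mWAT (1.47 ± 0.27, adjusted p = 0.0017). Meox2 and Tcf15 act as a pair of transcription factors in endothelium and are known to drive fatty acid uptake genes. Both were called higher in BAT than in mWAT at 28°C, by 1.22 ± 0.21 and 2.26 ± 0.25. In that comparison 7 of the 10 regulators of their list were called higher, against 17.7% of all genes. Tcf15 was also higher in sWAT than in mWAT at 6°C (1.34 ± 0.25).

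Among probe sets brighter than the array median and outside the gene lists, those that followed Gpihbp1 most closely over the 18 arrays were Btnl9, Cd300lg and Ushbp1 (Pearson r = 0.986, 0.979 and 0.975). For Vldlr they were Mecr, Nrp1 and Cbwd1 (r = 0.986, 0.985 and 0.983), for Angptl4 Trappc6b, Abhd4 and Fgfrl1 (r = 0.929, 0.928 and 0.925), and for Lpl Fam160a1, Acaca and Marchf3 (r = 0.900, 0.895 and 0.894). The 18 points fall into 6 groups, so these values describe the depots' common order.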

How the data were processed

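RNA of 18 adipose tissue samples was amplified, labelled with biotin and hybridized to Affymetrix mouse arrays. The authors adjusted the background, summarized probe sets and normalized between arrays with Bioconductor (affy), and the algorithm is not named. The methods and the legends name different Affymetrix array types, and the probe set table used here belongs to a further one of the same family. The deposited values are an intensity for each probe set and array on a linear scale, from 4.44 to 31897, and no other column of samples was present (0). Normalization between arrays removes any change shared by most transcripts. No detection values are given, and precision rests on how many arrays each group has.

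Intensities were taken to log2, 64 control probe sets were left out and 45037 were tested in R 4.3.3 with limma 3.58.1 (lmFit, contrasts.fit, eBayes), with a mean for each of 6 groups and no other covariate. The fit had 12 residual and 2.64 prior degrees of freedom. The 12 comparisons were 6 against 28°C in each depot, each pair of depots at each temperature, and the differences between cold responses. P-values were adjusted by Benjamini-Hochberg over all probe sets of a comparison, with a threshold of 0.01 as in the methods. The test was checked on simulated data. A member was counted by its brightest probe set. Genes were named from GEO's probe set table (34945 probe sets name 1 gene and 932 several). Gene positions and promoters are those of RefSeq on GRCm38.p6. Promoter entries were listed for 5 of the 9 members, with Lipg left out.

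The genes named are the members with all their probe sets, the genes of 5 pathway lists called for cold, the 3 genes most like each of Lpl, Gpihbp1, Angptl4 and Vldlr, and marker lists beside results. Apoc2, Angptl8, Meox2 and Tcf15 were named for their roles after values were seen. The members and lists were chosen with earlier results of these data known. Besides the lists quoted in the text, 8 mature adipocyte, 6 mesothelium and 7 mammary epithelium genes were measured. Their means were 11.94 to 12.95 over all arrays for mature adipocyte, 10.13 to 11.56 in mWAT for mesothelium and 10.69 to 12.76 in sWAT for mammary epithelium. Alternatives were a threshold of 0.05, quantile normalization, centring on medians, fits to no arrays but those compared, dim probe sets left out, a variance trend with robust estimates, the mean over probe sets of a gene, the skeletal muscle list as a covariate, both mWAT arrays 3 left out, and each array left out in turn.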

Additional observations from a re-analysis of the deposited data

How the results depend on the processing

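The differences of the 8 members in 12 comparisons were taken again under all alternatives but those that left out 1 array. Of these values 817 had the direction and call reported, 24 were called in addition, 12 were no longer called and 11 turned direction. Of the 24 gained calls 7 came only from the looser threshold of 0.05, with the p-values unchanged. Of the 12 lost calls 6 came with only the groups compared in the fit, 2 with median centring, 2 with the mean over probe sets and 2 with the skeletal muscle covariate, and they belonged to Lrp1, Cd36 and Gpihbp1. With 1 array left out these numbers were 1676, 5, 23 and 24. None of the reversed differences was called, and the cause was not tested.

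For cold in sWAT 0 members became 1, Vldlr, at a threshold of 0.05, with dim probe sets left out, with a variance trend and robust estimates, and without both mWAT arrays 3. For sWAT against mWAT at 28°C 1 member became 2, with Vldlr added, at 0.05, with trend and robust estimates, and without both mWAT arrays 3. It became 0 with only the groups compared in the fit, which leaves fewer residual degrees of freedom. For BAT against mWAT at 6°C that fit gave 3 in place of 5. For sWAT against mWAT at 6°C a threshold of 0.05 gave 5 in place of 3. Leaving out each array in turn gave 0 to 1 member for cold in sWAT, 1 without sWAT array 3 at 28°C (Gpihbp1). It gave 2 to 4 for BAT against sWAT at 28°C, 2 without BAT array 1 at 28°C (Angptl4 and Lrp1 lost), and 1 to 2 for sWAT against mWAT at 28°C.

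With the mean over probe sets the cold difference became 0.0038 for Angptl4 in BAT (reported as -0.64), 0.1158 for Cd36 in BAT and 0.0506 for Vldlr in mWAT, and the cold response of BAT minus that of mWAT became 0.1821 for Lmf1. With median centring the cold difference of Cd36 in BAT became 0.0193, and BAT minus sWAT at 28°C became 0.0397 for Lpl. With quantile normalization BAT minus sWAT at 6°C became -0.0197 for Lpl, -0.0242 for Gpihbp1 and -0.0003 for Cd36. With the skeletal muscle list as a covariate the cold difference of Vldlr in BAT became -0.0552, and without both mWAT arrays 3 that of Lrp1 in mWAT became -0.0039.

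With each array left out in turn, cold differences in BAT ranged from -0.0338 to 0.1192 for Gpihbp1, -0.0719 to 0.12 for Lmf1 and -0.0209 to 0.0942 for Vldlr. Those in mWAT ranged from -0.254 to 0.086 for Vldlr and -0.1062 to 0.2006 for Lrp1. BAT minus sWAT ranged from -0.7118 to 0.0457 for Lipg at 28°C. At 6°C it ranged from -0.0148 to 0.0281 for Lpl, -0.0345 to 0.1533 for Gpihbp1 and -0.3423 to 0.4997 for Lipg. The cold response of BAT minus that of sWAT was -0.0754 to 0.8313 for Lipg, and minus that of mWAT -0.0582 to 0.2818 for Vldlr. That of sWAT minus mWAT was -0.0237 to 0.2506 for Lmf1, -0.1671 to 0.4718 for Angptl4 and -0.3066 to 0.0002 for Lrp1.

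No paired analysis was possible because the labels give the arrays no replicate numbers and no animal. Probe sets under the array medians, such as the second ones of Angptl4 and Lmf1, give differences whose size is uncertain.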
